A study of Homo sapiens with 6 samples.

Results

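The genes described here are 33 genes of S phase and DNA replication, taken by gene symbol from the 61806 genes of the deposited table. All 33 were found by Ensembl identifier and all 33 were among the 19485 genes that passed the filter on low counts. The rule used their known function, not their values. Their poly(A) RNA was sequenced in 6 libraries of NB4 cells, a human cell line derived from acute promyelocytic leukaemia. The 3 control libraries carry the genotype label Wild-type and are vector control cells per the design text, and the 3 CD69-overexpressing libraries come from NB4 cells transduced with a lentivirus for CD69 (a membrane protein that lymphocytes display early in activation). All 6 libraries are labelled batch 1, were harvested in logarithmic growth, and received no drug. The labels call the libraries biological replicates but name no separate transductions or clones, so each group may be a single transduced population and p-values cover the spread between these libraries only. The comparison asks which transcripts differ with CD69 overexpression.

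DNA replication starts at origins, where the origin recognition complex, CDC6 and CDT1 load the ring of MCM2 to MCM7 onto DNA in G1. In S phase, CDC45 and the GINS complex join the ring to make the active helicase, and DNA polymerases follow it, held on DNA by the sliding clamp PCNA. Many of these genes are targets of the E2F transcription factors, which are released from the retinoblastoma protein when cyclin E and its kinase become active. In a growing leukaemia line such as NB4 these genes are expressed in the cycling cells, and in bulk RNA a smaller share of cells in S phase cannot be told apart from less RNA per cell.

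Total counts per library lay between 51543550 and 57463020. CD69 itself was 77.6 ± 6.14 CPM (counts scaled to a common library size with TMM factors; SD, n = 3) in control cells against 97.7 ± 1.75 CPM with the CD69 vector (SD, n = 3), a log2 fold change of 0.33 (SE 0.07). Of the promyelocyte markers, ELANE, PRTN3, AZU1, CTSG and CD33 were present at 45.0 CPM or more in every library, while MPO, a defining enzyme of promyelocytes, was at or below 1.45 CPM in each. The sum of these 6 markers ranged from 994 to 1248 CPM among controls and from 2006 to 2411 CPM among overexpressing libraries, and 3 of the 6 rose. The summed level of 6 B lineage markers ranged from 13.2 to 16.6 CPM among controls, and read 20.5, 74.4 and 72.4 CPM for overexpressing replicates 1, 2 and 3; of the 5 that were tested 3 rose. Of these, MS4A1 held 0.46 to 2.59 CPM in control cells against 0.91, 22.4 and 22.7 CPM in overexpressing replicates 1, 2 and 3, while CR2 was at 0 in 2 controls and 2 overexpressing libraries. The summed level of 6 fibroblast and epithelial markers ranged from 102 to 115 CPM among controls, and read 106, 37.0 and 25.7 CPM for overexpressing replicates 1, 2 and 3; 1 of the 6, EPCAM, fell. The summed level of 6 T and NK markers ranged from 54.6 to 73.5 CPM among controls and from 99.7 to 119 CPM among overexpressing libraries. NKG7, a granule gene, made up most of that sum and rose by 0.81 on the log2 scale (SE 0.13), CD2 fell from 1.18 CPM or less to 0.142 CPM or less, and CD3E and CD3G were at 0 counts in every library. The sum of 6 erythroid markers ranged from 5.82 to 7.97 CPM over all libraries, and edgeR called none of the 3 that were tested. Overexpressing replicate 1 therefore stood apart from replicates 2 and 3 in the B lineage and epithelial markers. What part these markers have in the results was not tested, and the calls that are lost without that library are named below.

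Replication genes were called in both directions, with a share of rises near the background and a share of falls above it. Of the 33, 6 rose, which is 18.2% against 14.2% of all genes tested, and 8 fell, which is 24.2% against 9.94% of all genes tested (edgeR quasi-likelihood test, adjusted p under 0.05). Among the 10251 coding genes of at least 5 mean CPM, whose levels are nearer to those of the 33, 17.9% rose and 15.6% fell. The risers were GINS1, POLA1, PCNA, MCM6, MCM4 and MCM3. The genes that fell were CLSPN, CDCA7, HELLS, CDC6, RRM2, MCM10, TYMS and UHRF1. The median log2 fold change over the 33 genes was -0.15, against 0.01 over all genes tested, with 23 genes below 0 and 10 above. All 3 overexpressing libraries lay above all 3 controls for 7 genes (23.0% of all genes tested did so) and below all 3 controls for 15 genes (19.3% of all genes tested did so).

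The summed level of the 33 genes overlapped between the groups, at 5634, 5611 and 5830 CPM in control replicates 1, 2 and 3 and 5732, 5766 and 5937 CPM in overexpressing replicates 1, 2 and 3. This sum is dominated by abundant genes such as PCNA and MCM3, which rose. The median gene, by contrast, lay 0.19, 0.20 and 0.10 log2 units below the control mean in overexpressing replicates 1, 2 and 3, with median log2 ratios of -0.19, -0.20 and -0.10. In all 14 genes that changed, every overexpressing library was on the same side of the control mean, replicate 1 included. Without overexpressing replicate 1, 3 genes rose and 6 fell, the lost calls being those of MCM3, MCM4, MCM6, MCM10 and TYMS. Likewise 3 rose and 5 fell without control replicate 2 or without overexpressing replicate 2, 4 rose and 5 fell without control replicate 1, and 9 rose and 9 fell without control replicate 3. DESeq2 called more of the 33 lower, with 16 falling and the same number, 6, rising. It also called more of all 19485 genes, 2720 lower and 3177 higher, against 1937 and 2767 with edgeR.

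**Figure D1:**
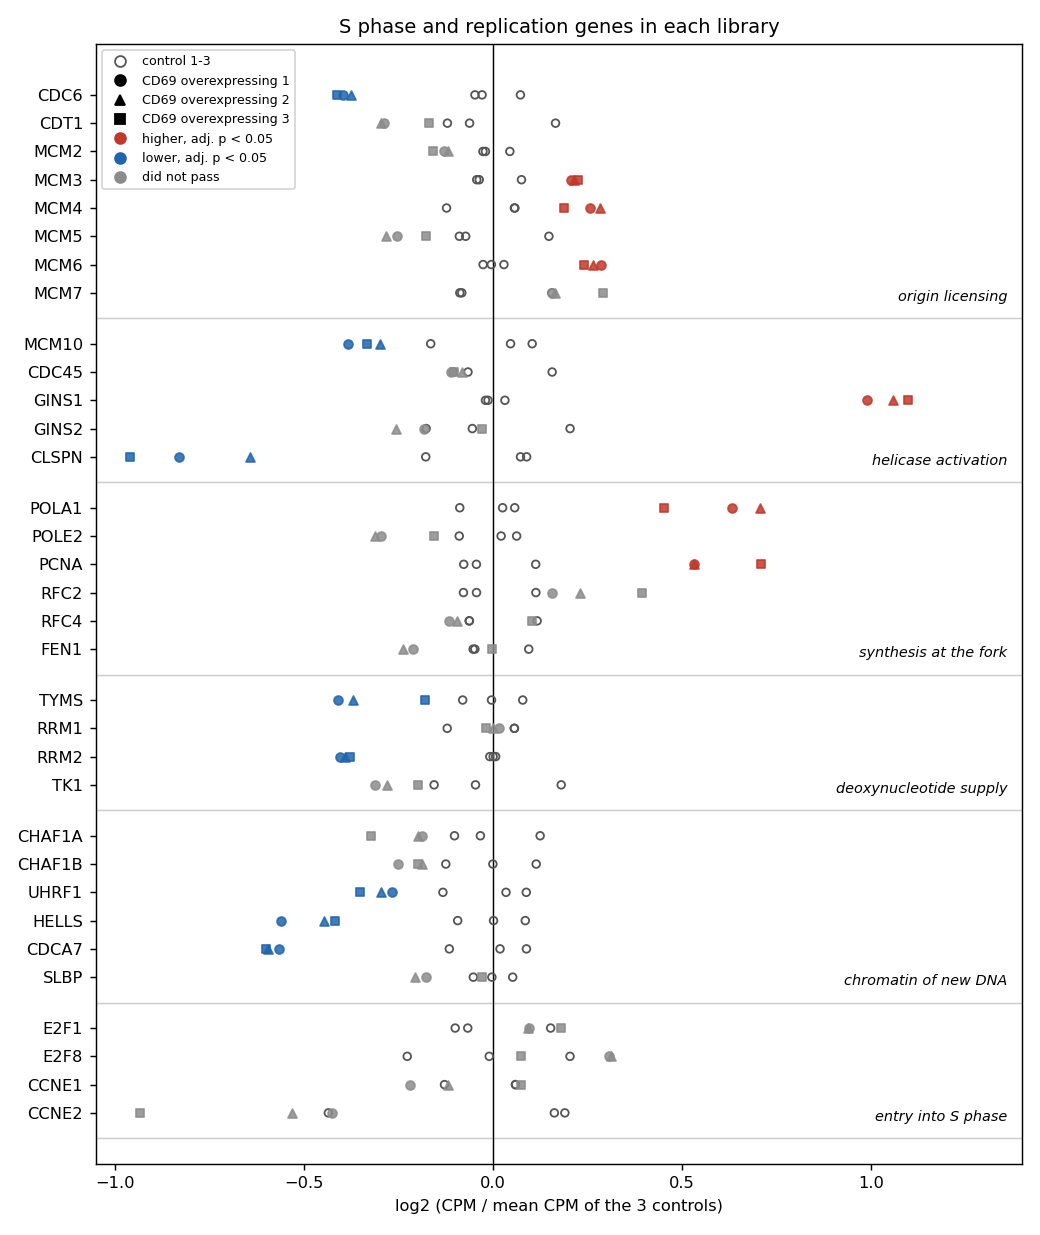
Level of each of the 33 genes in each library, as log2 of its CPM over the mean CPM of the 3 controls (x axis), grouped by role (y axis); open circles are controls, and the filled circle, triangle and square are overexpressing replicates 1, 2 and 3, red for genes that rose, blue for genes that fell and grey for genes that did not pass the test. GINS1 lies farthest right and CLSPN far to the left, and the 3 overexpressing libraries of each changed gene lie on the same side of 0.

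RefSeq promoter windows (build GRCh38.p14) were matched by symbol for 29 of the 33 genes, the others being MCM4, MCM5, CCNE2 and E2F8. The 250 bases upstream of the first listed start were searched on both strands for 4 E2F words, TTTGGCGC, TTTCCCGC, TTTCGCGC and TTTGCCGC. At least 1 word was found in 12 of the 29 windows (41.4%), against 2.8% of 27305 RefSeq windows and 4.3% of the 12424 windows of tested genes. By call, the words were in 4 of 5 windows of genes that rose, 4 of 8 that fell and 4 of 16 that did not pass, so they were present on both sides of the split. The pentamer CCAAT was in 17 of the 29 windows (58.6%, against 34.5% of the windows of tested genes), among them all 5 of the genes that rose and 6 of the 8 that fell. The CHR words TTTGAA and TTCGAA were in 2 of the 29 (6.9%, against 10.0%). Some overlap occurs between the E2F words, since TTTGGCGC read on 1 strand and TTTCGCGC read on the other share bases in MCM6. A match describes letters only and is no evidence of binding. The windows of 4 genes that rose and 4 that fell are shown 5′ to 3′ on the gene's strand, ending at the base before the start, with E2F words on either strand in capitals. GINS1 and CLSPN, the largest rise and the largest fall, held no E2F word in this window, and the other 6 held at least 1.
GINS1 (chr20:25407423-25407672, plus strand): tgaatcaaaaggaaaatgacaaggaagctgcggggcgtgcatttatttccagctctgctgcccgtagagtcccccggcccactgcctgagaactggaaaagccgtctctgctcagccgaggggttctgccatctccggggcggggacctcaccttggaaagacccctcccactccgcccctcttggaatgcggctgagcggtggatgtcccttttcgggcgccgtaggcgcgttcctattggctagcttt
POLA1 (chrX:24693668-24693917, plus strand): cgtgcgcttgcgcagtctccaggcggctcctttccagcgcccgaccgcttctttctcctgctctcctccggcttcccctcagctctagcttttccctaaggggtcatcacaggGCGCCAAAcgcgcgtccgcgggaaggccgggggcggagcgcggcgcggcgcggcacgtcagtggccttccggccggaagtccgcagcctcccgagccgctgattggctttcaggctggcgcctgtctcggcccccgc
PCNA (chr20:5126623-5126872, minus strand): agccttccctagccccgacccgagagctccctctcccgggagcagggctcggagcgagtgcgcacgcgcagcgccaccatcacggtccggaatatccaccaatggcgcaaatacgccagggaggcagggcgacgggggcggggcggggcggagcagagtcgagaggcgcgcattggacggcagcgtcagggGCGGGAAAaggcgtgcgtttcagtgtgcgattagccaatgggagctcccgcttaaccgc
MCM6 (chr2:135876444-135876693, minus strand): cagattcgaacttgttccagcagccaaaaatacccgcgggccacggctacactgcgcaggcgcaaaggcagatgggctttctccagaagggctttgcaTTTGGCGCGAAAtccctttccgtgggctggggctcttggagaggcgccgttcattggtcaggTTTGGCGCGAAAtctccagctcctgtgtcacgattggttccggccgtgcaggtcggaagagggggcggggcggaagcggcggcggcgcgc
CLSPN (chr1:35769979-35770228, minus strand): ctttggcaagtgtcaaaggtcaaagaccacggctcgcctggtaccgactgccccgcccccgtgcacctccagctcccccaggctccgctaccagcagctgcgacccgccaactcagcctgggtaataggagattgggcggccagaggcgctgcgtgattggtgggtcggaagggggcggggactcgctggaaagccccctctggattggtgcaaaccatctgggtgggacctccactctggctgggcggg
CDCA7 (chr2:173354622-173354871, plus strand): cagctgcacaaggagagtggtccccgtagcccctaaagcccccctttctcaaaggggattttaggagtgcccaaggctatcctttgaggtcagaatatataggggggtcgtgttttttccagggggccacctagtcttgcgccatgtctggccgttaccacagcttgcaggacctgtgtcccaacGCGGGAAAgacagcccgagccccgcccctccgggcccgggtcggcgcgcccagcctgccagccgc
HELLS (chr10:94545538-94545787, plus strand): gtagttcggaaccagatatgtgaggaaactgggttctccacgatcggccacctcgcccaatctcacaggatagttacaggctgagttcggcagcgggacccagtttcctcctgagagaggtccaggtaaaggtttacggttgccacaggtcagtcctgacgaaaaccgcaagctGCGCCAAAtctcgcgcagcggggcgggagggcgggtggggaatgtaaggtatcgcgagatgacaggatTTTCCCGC
TYMS (chr18:657403-657652, plus strand): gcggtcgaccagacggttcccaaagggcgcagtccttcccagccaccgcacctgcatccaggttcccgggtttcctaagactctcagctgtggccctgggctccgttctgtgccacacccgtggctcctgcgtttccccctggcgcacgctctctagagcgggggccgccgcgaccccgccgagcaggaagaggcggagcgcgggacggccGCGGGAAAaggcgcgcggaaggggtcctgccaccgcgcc
In MCM6 the words overlap as pairs at 2 places, with first bases 152 and 148 upstream and 90 and 86 upstream of the start. The PCNA, CDCA7 and TYMS windows each held the word TTTCCCGC on the opposite strand, 59, 65 and 39 bases upstream of the RefSeq start. The HELLS window lies within the gene as GENCODE draws it, since RefSeq's first listed start is downstream of the GENCODE start. The CDCA7 and TYMS windows also run past the GENCODE starts, at 173354820 and 657604. The TYMS word lies inside the gene as GENCODE draws it. PCNA, CDCA7 and TYMS share that word and did not move together: PCNA rose while CDCA7 and TYMS fell.

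Among the 8 licensing genes, 3 rose (37.5%, against 14.2% of all genes tested) and 1 fell (12.5%, against 9.94%). The risers were 3 of the 6 subunits of the MCM ring, and the gene that fell was the loader CDC6. MCM6 (chromosome 2, 135839626 to 135876426, minus strand) held 393, 378 and 384 CPM in control cells against 470, 462 and 455 CPM in the overexpressing libraries. It rose by 0.26 on the log2 scale (SE 0.05, adjusted p = 0.0106), with no overlap between the groups. MCM3 (chromosome 6, 52264009 to 52284881) held 516, 514 and 558 CPM against 610, 614 and 618 CPM. It rose by 0.22 (SE 0.06, adjusted p = 0.0333), again with every overexpressing library above every control. MCM4 (chromosome 8, 47960185 to 47978160) held 385, 386 and 340 CPM against 443, 451 and 422 CPM, and rose by 0.24 (SE 0.07, adjusted p = 0.0418). These rises were small: the call on MCM6 was lost without control replicate 2 or overexpressing replicate 1 or 2, and those on MCM3 and MCM4 without any 1 library other than control replicate 3 (adjusted p up to 0.184 and 0.151). The MCM3 call was also lost with RLE or upper-quartile scaling (adjusted p = 0.0552 and 0.0554) and with no filter on low counts (0.0759), and MCM3 was called in 7 of 17 alternatives. MCM4 lost its call with no scaling factors (adjusted p = 0.0542) and with no filter (0.0821).

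The remaining ring subunits did not pass the test. MCM7 had a log2 fold change of 0.20 (SE 0.08, adjusted p = 0.122), MCM2 of -0.14 (SE 0.06, adjusted p = 0.120) and MCM5 of -0.24 (SE 0.08, adjusted p = 0.0691). For MCM2 and MCM5 every overexpressing library lay below every control. The transcripts of this ring, whose proteins assemble in equal number, were not at equal levels per length in the controls: MCM3 was at 145 ± 6.77 RPKM (CPM per kilobase of exon; SD, n = 3), MCM7 at 117 ± 11.5, MCM6 at 93.5 ± 1.80, MCM2 at 73.2 ± 2.01, MCM4 at 53.1 ± 3.74 and MCM5 at 36.2 ± 3.40 RPKM. In the overexpressing libraries MCM3, MCM7 and MCM6 remained the 3 highest of the ring, at 168 ± 1.03, 135 ± 7.15 and 112 ± 1.76 RPKM, and MCM5 the lowest, at 30.7 ± 1.19 RPKM. The ratio of MCM6 to MCM5, on the RPKM scale, was 2.77, 2.70 and 2.32 among the controls against 3.76, 3.77 and 3.45 in the overexpressing libraries, and the ratio of MCM4 to MCM2 was 0.77, 0.77 and 0.65 against 0.95, 0.96 and 0.92. Both ratios were higher in every overexpressing library than in every control; they were chosen after the values were seen and are given without a test.

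The loader CDC6 (chromosome 17, 40287633 to 40304657), which recruits the MCM ring with CDT1, held 92.9, 86.6 and 85.4 CPM in control cells against 67.1, 68.0 and 66.4 CPM in the overexpressing libraries. The groups did not overlap, and CDC6 fell by 0.39 on the log2 scale (SE 0.06, adjusted p = 0.00345). CDT1, its partner in loading, had a log2 fold change of -0.25 (SE 0.09, adjusted p = 0.0818), with 92.3 to 112 CPM in control cells against 81.8 to 89.1 CPM in the overexpressing libraries.

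In the group that turns the loaded ring into a helicase, GINS1 showed the largest change of all 33 genes. GINS1 (chromosome 20, 25407727 to 25452628, plus strand), a subunit of the GINS complex, held 61.2, 59.0 and 59.3 CPM in control cells against 119, 125 and 128 CPM in the overexpressing libraries. It rose by 1.05 on the log2 scale (SE 0.06, adjusted p = 4.43e-05), a 2.07-fold rise, and was called in each of the 17 alternatives that could be fitted for it. Its partner GINS2 did not pass the test, with a log2 fold change of -0.15 (SE 0.11, adjusted p = 0.371) and overlapping groups. Per length, GINS1 was therefore slightly below GINS2 in each control, with GINS1 to GINS2 ratios of 0.91, 0.96 and 0.74. It was above GINS2 in each overexpressing library, with ratios of 1.93, 2.13 and 1.87. This ratio was chosen after the values were seen and is given without a test. Of the other GINS subunits, GINS4 fell from 65.7 to 47.7 CPM (log2 fold change -0.46, SE 0.08). GINS3, named only to complete the complex, did not pass (log2 fold change -0.05, SE 0.09).

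CLSPN (chromosome 1, 35720218 to 35769967, minus strand) encodes claspin, an adaptor of the replication checkpoint that travels with the fork. It held 86.1, 87.1 and 72.4 CPM in control cells against 46.0, 52.4 and 42.1 CPM in the overexpressing libraries, with a clear gap between the groups. CLSPN fell by 0.80 on the log2 scale (SE 0.11, adjusted p = 0.00162), the largest fall of the 33, and was called in all 18 alternatives. MCM10, a scaffold of helicase activation (chromosome 10, 13161554 to 13211104), held 43.9, 45.6 and 37.9 CPM against 32.6, 34.5 and 33.7 CPM and fell by 0.34 (SE 0.09, adjusted p = 0.0282). That call was lost without any 1 library other than control replicate 3. CDC45, the helicase cofactor, did not pass (log2 fold change -0.10, SE 0.08, adjusted p = 0.433), its controls at 68.9 to 82.6 CPM and its overexpressing libraries at 68.6 to 70.0 CPM. An antisense gene covers 5.17% of the CLSPN exons at 0.21 CPM, and whether reads were counted by strand is not stated.

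Genes of the moving fork contained the other large rises. PCNA (chromosome 20, 5114953 to 5126626, minus strand), the sliding clamp, held 394, 404 and 450 CPM in control cells against 601, 601 and 680 CPM in the overexpressing libraries. It rose by 0.59 on the log2 scale (SE 0.08, adjusted p = 0.00164). POLA1 (chromosome X, 24693919 to 24996986), the catalytic subunit of the polymerase that starts new strands with primase, held 69.1, 67.5 and 62.4 CPM against 103, 108 and 90.8 CPM. It rose by 0.60 (SE 0.08, adjusted p = 0.00195), and for both genes every overexpressing library was above every control. PCNA has 3 annotated pseudogenes of its name in the table, which together held 0.0174% of the gene's counts.

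The remaining fork genes did not pass. RFC2, a subunit of the clamp loader, had a log2 fold change of 0.26 (SE 0.09, adjusted p = 0.0632), with all overexpressing libraries (80.1 to 94.4 CPM) above all controls (68.1 to 77.7 CPM). Its partner RFC4 had a log2 fold change of -0.03 (SE 0.09). POLE2, an accessory subunit of the leading strand polymerase, had -0.25 (SE 0.09, adjusted p = 0.0742), with all overexpressing libraries below all controls. FEN1, the nuclease that trims Okazaki fragments on PCNA, had -0.15 (SE 0.08, adjusted p = 0.251) with overlapping groups. The PCNA to FEN1 ratio per length was 4.43, 4.55 and 4.58 among the controls against 7.57, 7.71 and 7.41 in the overexpressing libraries, and that of POLA1 to POLE2 was 1.2 in each control against 2.29, 2.43 and 1.83. Both ratios were higher in every overexpressing library than in every control, and they too were chosen after the values were seen.

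Among 4 genes that supply deoxynucleotides, 2 fell (50%, against 9.94% of all genes tested) and none rose (14.2% of all genes tested did so). RRM2 (chromosome 2, 10120698 to 10131419), the S phase subunit of ribonucleotide reductase, was at 422, 420 and 418 CPM in control cells against 317, 320 and 323 CPM in the overexpressing libraries. It fell by 0.39 on the log2 scale (SE 0.05, adjusted p = 0.00163). RRM1, the large subunit of the same enzyme, was at 220, 220 and 194 CPM against 214, 212 and 209 CPM, a log2 fold change of 0.00 (SE 0.07) with overlapping groups. The ratio of RRM2 to RRM1 per length was 1.51, 1.5 and 1.68 in the controls. In the overexpressing libraries it was 1.16, 1.19 and 1.21. That ratio too was chosen after the values were seen and is given without a test. RRM2 shares 20.2% of its exons with another annotated coding gene on the same strand, AC007240.1, which was not among the genes tested.

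TYMS (chromosome 18, 657604 to 673578), thymidylate synthase, held 280, 295 and 313 CPM in control cells against 223, 229 and 262 CPM in the overexpressing libraries. The groups did not overlap, and TYMS fell by 0.32 on the log2 scale (SE 0.08, adjusted p = 0.0264). The call was lost without any 1 library other than overexpressing replicate 3, and with no filter on low counts (adjusted p = 0.0565). Exons of ENOSF1 on the opposite strand cover 39.1% of those of TYMS, so part of its counts is uncertain; ENOSF1 had a log2 fold change of -0.21 (adjusted p = 0.0660). TK1, thymidine kinase of the salvage pathway, did not pass (log2 fold change -0.26, SE 0.10, adjusted p = 0.0851), though each overexpressing library (58.8 to 63.7 CPM) was below each control (65.6 to 82.8 CPM).

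The 6 genes that act on the chromatin of new DNA all had negative log2 fold changes, from -0.59 to -0.13, and 3 fell (50%, against 9.94% of all genes tested). CDCA7 (chromosome 2, 173354820 to 173368997), which recruits the remodeller HELLS to chromatin, held 225, 214 and 195 CPM in control cells against 143, 140 and 140 CPM in the overexpressing libraries. It fell by 0.59 (SE 0.07, adjusted p = 0.000892). HELLS (chromosome 10, 94501434 to 94613905) held 87.6, 82.7 and 77.4 CPM against 56.1, 60.6 and 61.9 CPM and fell by 0.47 (SE 0.07, adjusted p = 0.00336). CDCA7 and HELLS, partners in the same complex, thus both fell, with no overlap between the groups for either.

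UHRF1 (chromosome 19, 4903080 to 4962154), which brings the maintenance DNA methyltransferase to newly copied DNA, held 184, 178 and 158 CPM in control cells against 144, 141 and 136 CPM in the overexpressing libraries. It fell by 0.30 (SE 0.07, adjusted p = 0.0217), a call that was lost without control replicate 1 or 2 or overexpressing replicate 2 or 3. The 2 large subunits of the histone chaperone CAF-1, CHAF1A and CHAF1B, had log2 fold changes of -0.23 (SE 0.08, adjusted p = 0.0710) and -0.21 (SE 0.08, adjusted p = 0.0899). Neither passed, though for both every overexpressing library was below every control. SLBP, which binds the stem-loop of replication histone messengers, had -0.13 (SE 0.07, adjusted p = 0.212) and overlapping groups.

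None of the 4 genes of S phase entry passed edgeR's test, 1 of them (CCNE2) had an unadjusted p under 0.05, and DESeq2 called that 1 gene. CCNE2 (chromosome 8, 94879770 to 94896678), an E-type cyclin, had a log2 fold change of -0.61 (SE 0.20, adjusted p = 0.0593). It held 26.7, 27.2 and 17.6 CPM in control cells against 17.8, 16.5 and 12.5 CPM in the overexpressing libraries, so that control replicate 3 lay among the overexpressing libraries. Exons of INTS8 on the opposite strand cover 37.0% of those of CCNE2. CCNE1, the other E-type cyclin, was at 14.6 to 16.7 CPM in control cells against 13.8 to 16.9 CPM in the overexpressing libraries (log2 fold change -0.08, SE 0.12). E2F1, an activator of many of these genes, was at 40.7 to 48.4 against 46.5 to 49.3 CPM (log2 fold change 0.12, SE 0.09), and E2F8, a repressor of the same targets, at 61.6 to 83.0 against 75.9 to 89.6 CPM (log2 fold change 0.24, SE 0.12).

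Per length, the 33 genes spanned from 283 ± 20.2 RPKM for PCNA to 5.43 ± 1.22 RPKM for CCNE2 in the controls (SD, n = 3). PCNA, MCM3, TYMS, MCM7 and MCM6 led the order in the controls, and PCNA, MCM3, MCM7, MCM6 and TYMS in the overexpressing libraries. TYMS and MCM7 were not separated in the controls, where their libraries overlapped, and neither were MCM6 and SLBP. In the middle of the order, from TK1 down to CHAF1A, each gene overlapped the next. GINS1 moved from rank 26 to rank 16, and CLSPN from rank 25 to rank 28. Exon length is the union over all annotated transcripts, which lowers the value of genes with long rarely used exons.

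**Figure D2:**
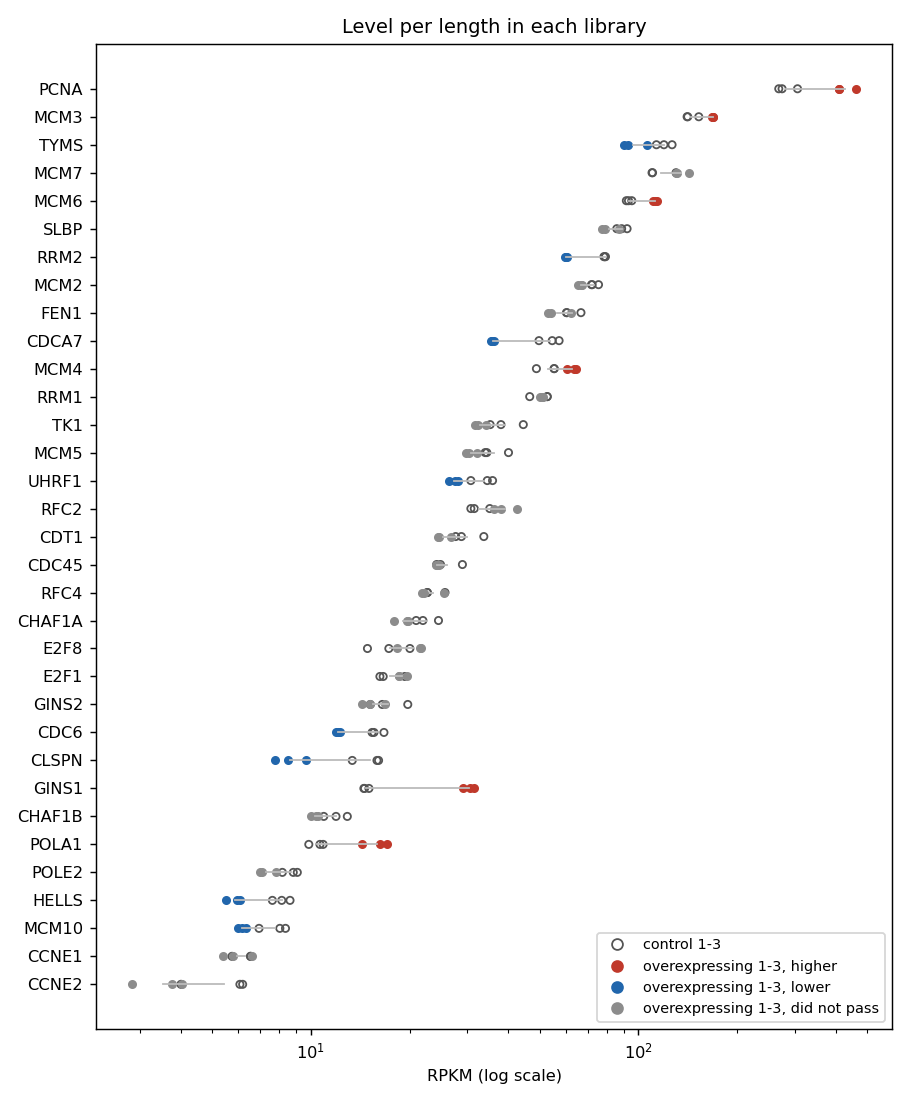
Level per length of each gene (RPKM on a log axis) in the 3 control libraries (open circles) and the 3 overexpressing libraries (filled circles, coloured by call), ordered by the control mean and joined by a line between group means. PCNA is at the top in both groups and CCNE2 at the bottom, and the longest line belongs to GINS1.

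Of the 6 genes that rose, 4 lie on chromosomes 6, 20 and X. GINS1, PCNA and E2F1 lie on chromosome 20, POLA1 on X and MCM3 on 6, and of these 5 genes 4 rose and none fell, with E2F1 not passing. On chromosomes 6, 15, 20 and X, 41.1% of coding genes of at least 5 mean CPM rose and 17.8% fell. Of the 28 genes elsewhere 2 rose, MCM4 and MCM6, and 8 fell, with a median log2 fold change of -0.22, where 14.0% of such coding genes rose and 15.2% fell. Coding genes of this level had a median log2 fold change of 0.40 on chromosome 20 (163 of 286 genes higher, 27 lower) and of 0.49 on X (219 of 326 genes higher, 10 lower), against -0.07 on chromosome 6 (131 of 524 genes higher, 151 lower) and -0.10 on chromosome 8 (38 of 328 genes higher, 60 lower). Chromosomes 6, 15, 20 and X were known from earlier results of these data to hold shifted genes. They were pooled with this known, so the high share of calls on them is no separate finding. In a fit without the genes of these 4 chromosomes, the counts among the 28 remaining replication genes were again 2 higher and 8 lower.

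Each gene was then set beside its neighbours, the other tested coding genes of at least 5 mean CPM that start within 5 Mb. Around GINS1, 11 of 16 neighbours rose and none fell, with a median log2 fold change of 0.69, below the 1.05 of GINS1 itself. Around PCNA, 45 of 56 rose and 2 fell (median 0.69), and around POLA1, 11 of 13 rose and none fell (median 0.53). MCM6 and MCM3 lay in windows with medians of 0.43 (8 of 14 higher) and 0.33 (9 of 19 higher), both above their own log2 fold changes of 0.26 and 0.22. The exception among the 6 was MCM4, whose 8 neighbours had a median of 0.00, with 1 higher and 1 lower. So 5 of the 6 genes that rose lay in a window with a median of at least 0.25, as did 7 of all 33. The share among all coding genes, or among all genes that rose, is not given here, so this count has no background.

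No gene that fell lay in a window with a median of at least 0.25. The 8 windows had medians from -0.18 (MCM10) to 0.15 (CDCA7), all nearer to 0 than the change of the gene itself. CLSPN fell by 0.80 in a window with a median of -0.11 (8 of 87 higher, 22 lower), and CDCA7 fell by 0.59 where 13 of 35 neighbours rose and 3 fell. Among the 19 genes that did not pass, MCM7 and RFC2 on chromosome 7 lay in windows with medians of 0.29 (29 of 81 higher) and 0.43 (22 of 35 higher), and both had positive log2 fold changes. E2F1 lay in a mixed window, where 26 of 65 neighbours rose and 19 fell (median 0.22). Over all 33 genes, Pearson's r between a gene's log2 fold change and its window's median was 0.80 and Spearman's rho 0.64. Without the genes of chromosomes 6, 20 and X they were 0.52 and 0.45 (28 genes). These are descriptions across genes measured in the same 6 libraries, and UHRF1 and CHAF1A, 0.5 Mb apart, and CDT1 and GINS2, 3.13 Mb apart, share neighbours. Whether position has a part in the changes was not tested.

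**Figure D3:**
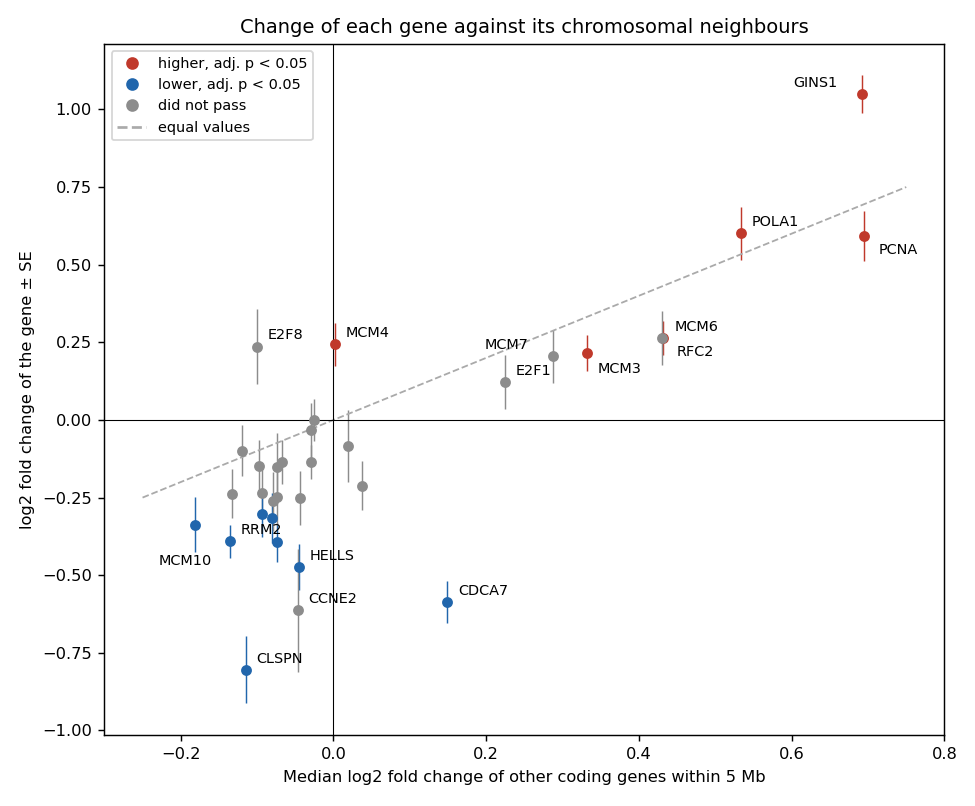
Log2 fold change of each of the 33 genes with its SE (y axis) against the median log2 fold change of the other coding genes within 5 Mb (x axis), with red for genes that rose, blue for genes that fell, grey for genes that did not pass and a dashed line at equal values. GINS1 stands above the line at 0.69 and 1.05, and CDCA7 far below it at 0.15 and -0.59.

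**Figure D4:**
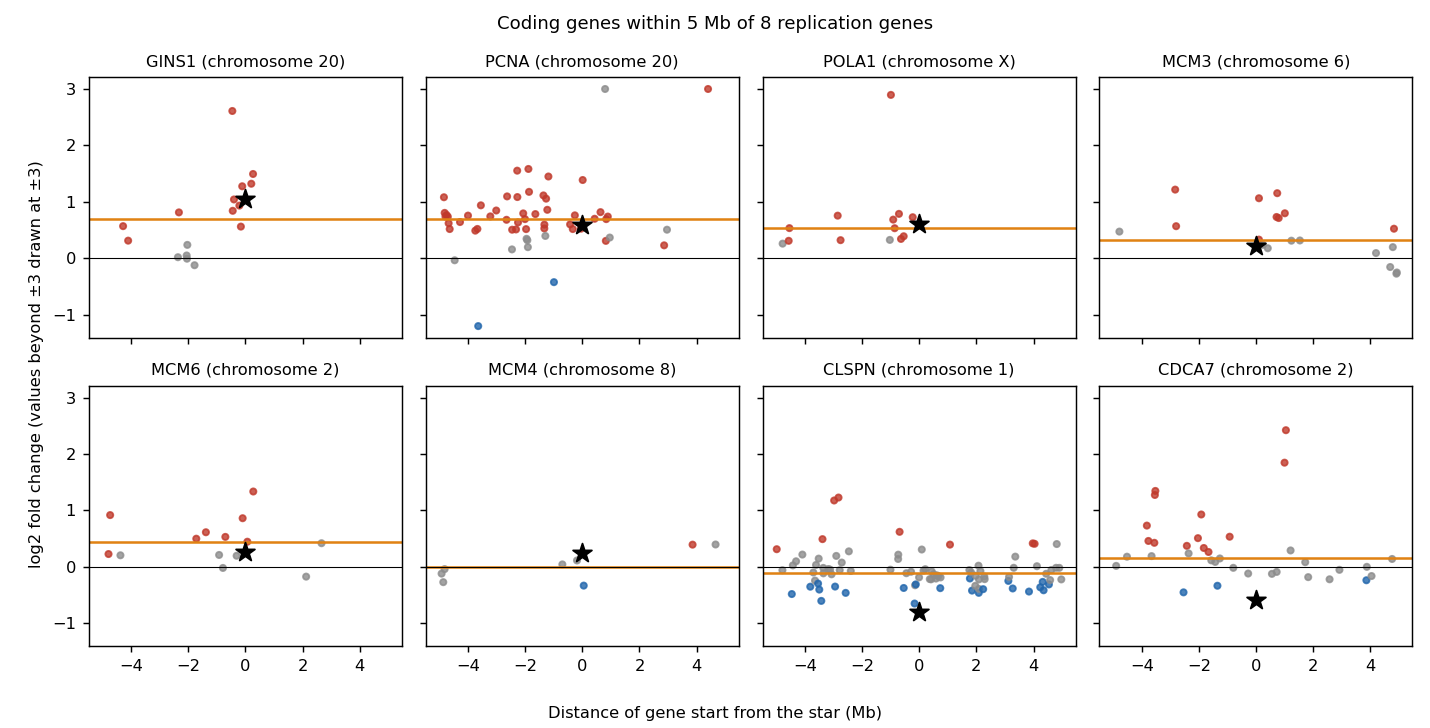
Log2 fold change (y axis) of coding genes by the distance of their start from that of each of 8 replication genes (x axis, Mb), with red for higher, blue for lower and grey for not passing; the star is the named gene and the orange line the median of its neighbours. Around PCNA and POLA1 most points are red and the star lies near the line, whereas the CLSPN star lies below most of its neighbours.

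Other genes of DNA replication, in 6 lists chosen by function, also changed in both directions. All 104 listed genes were tested, of which 10 rose (9.62%, against 14.2% of all genes tested) and 23 fell (22.1%, against 9.94%), with a median log2 fold change of -0.08. On chromosomes other than 6, 15, 20 and X, 6 of 86 rose (6.98%, against 14.0% of coding genes of at least 5 mean CPM there) and 18 fell (20.9%, against 15.2%). Without overexpressing replicate 1, 6 of the 104 rose and 17 fell, the lost calls being those of DBF4B, GMNN, LIG1, NASP, ORC6, PAICS, PCLAF, POLD4, RECQL4 and RPA2. The counts also moved with other libraries: 5 rose and 14 fell without control replicate 1 or without control replicate 2, 15 rose and 31 fell without control replicate 3, 6 rose and 12 fell without overexpressing replicate 2, and 6 rose and 18 fell without replicate 3. Among 13 other licensing factors, 3 rose (23.1%) and 5 fell (38.5%). ORC1, the cell cycle regulated subunit of the origin recognition complex, fell by 0.49 on the log2 scale (SE 0.06) and MCM9, whose exons on the opposite strand cover 5.44% of those of ASF1A, by 0.85 (SE 0.13), while the ORC subunit ORC4 rose by 0.48 (SE 0.07). Of 18 other factors of helicase activation and fork protection, 3 fell (16.7%) and none rose. These were GINS4, the helicase RECQL4, which fell by 0.34 (edgeR adjusted p = 0.0743 without overexpressing replicate 1), and TIMELESS, a fork protection factor, which fell by 0.31. The RECQL4 call was also lost without overexpressing replicate 2.

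Among 27 other polymerase, clamp and lagging strand genes, 4 rose (14.8%, against 14.2% of all genes tested) and 5 fell (18.5%, against 9.94%). POLD3, a subunit of the lagging strand polymerase, fell by 0.30 (SE 0.06) and DSCC1, of an alternative clamp loader, by 0.31 (SE 0.07). RNASEH2B, which helps remove ribonucleotides from DNA, rose by 0.32 (SE 0.07). The DSCC1 call was lost without overexpressing replicate 2, and that on RNASEH2B without control replicate 1 or 2 or overexpressing replicate 2. Of 21 other genes of nucleotide supply, 1 rose (4.76%) and 4 fell (19.0%). The CTP synthase gene CTPS1 fell by 0.41 (SE 0.06), and CTPS2 on X rose from 1.55 ± 0.606 to 9.87 ± 1.28 CPM (SD, n = 3). SAMHD1 on chromosome 20, which breaks down deoxynucleotides, fell by 0.71 (SE 0.10). Of 12 other chromatin replication genes, 1 rose (8.33%) and 4 fell (33.3%). The histone chaperones ASF1A and NASP fell by 0.80 (SE 0.09) and 0.34 (SE 0.07). NASP had an edgeR adjusted p of 0.0555 without overexpressing replicate 1, and its call was also lost without overexpressing replicate 2. RBBP7 on X, a histone binding protein, rose by 0.61 (SE 0.06).

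Of 13 other E2F and pocket protein genes, 1 rose (7.69%, against 14.2% of all genes tested) and 2 fell (15.4%, against 9.94%). E2F2, an activating E2F, fell by 0.70 (SE 0.09), TFDP2, a dimer partner of E2F proteins, rose by 0.85 (SE 0.08), and CDC25A, the phosphatase that activates the cyclin E kinase, fell by 0.25 (SE 0.07). The CDC25A call was lost without control replicate 1 or 2 or overexpressing replicate 2 or 3. In 18 mitosis genes set beside these lists, 2 rose (11.1%, against 14.2% of all genes tested) and 5 fell (27.8%, against 9.94%). Their median log2 fold change was -0.14, beside -0.15 for the 33 replication genes. Of the 5 that fell, PLK1 lost its call whichever 1 library was left out. AURKA and TPX2, a kinase and its activator on chromosome 20, went apart: AURKA rose by 0.52 (SE 0.06) and TPX2 fell by 0.64 (SE 0.05). CDC20, an activator of the anaphase-promoting complex, fell by 0.64 (SE 0.08). The mitosis genes summed to 4631, 4603 and 4320 CPM in control cells against 3812, 3832 and 3578 CPM in the overexpressing libraries. Each overexpressing library was below every control, unlike for the sum of the replication genes. The mitosis sum too rests much on abundant genes: TPX2 alone went from a mean of 973 to 626 CPM.

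**Figure D5:**
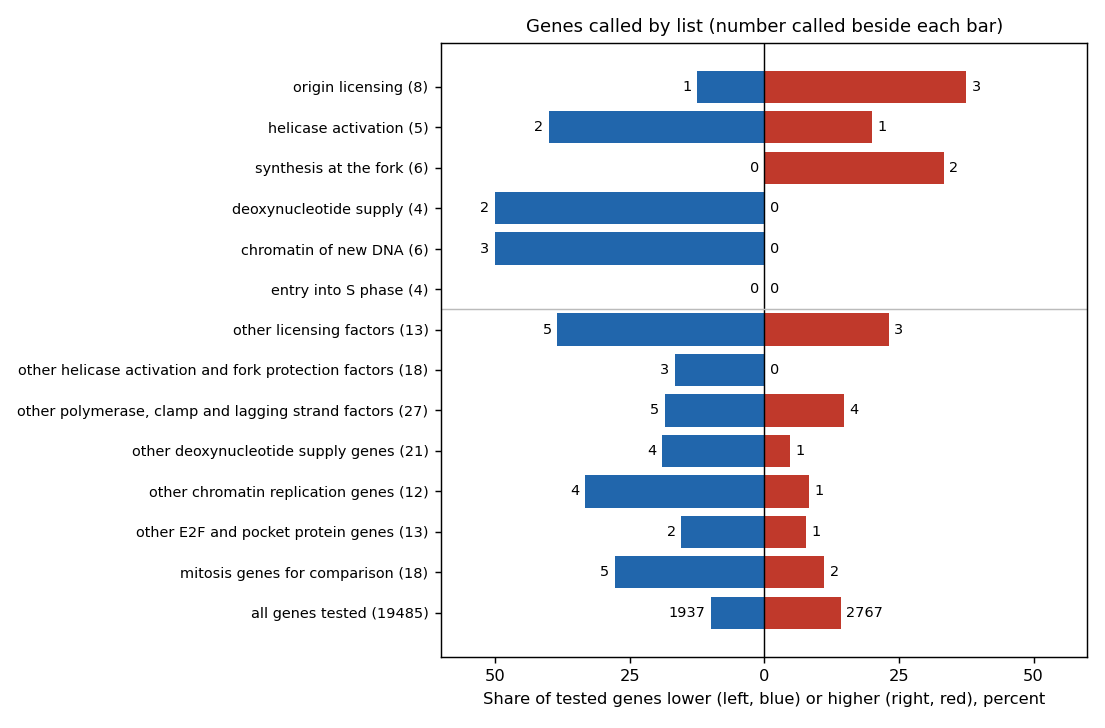
Share of tested genes called lower (blue, to the left) or higher (red, to the right) in percent for each role among the 33 genes (above the grey line), for the other lists and for all 19485 genes tested, with the number tested in parentheses and the number called beside each bar. Genes of deoxynucleotide supply and chromatin have blue bars only, and those of synthesis at the fork a red bar only.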

How the data were processed

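Poly(A) RNA of 3 control and 3 CD69-overexpressing NB4 libraries was sequenced in pairs with strand marking, per the labels' protocols. Counts of all genes came in 1 table from the authors; FastQC, fastp, STAR and featureCounts of Subread with GRCh38 (hg38) were used, per the submitters' processing notes, and their versions, annotation release, strand setting and counted unit (reads or fragments) are not stated. As deposited by the authors, the values are taken to be estimated counts. They were whole numbers, but in control replicate 1, 1496 genes held 4 counts and 777 held 3, so 1 fragment may stand for about 4 counts and precision may be below what the totals imply. Columns were matched to samples by the library names in the labels.

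Genes were filtered with filterByExpr (19485 of 61806 kept), scaled by TMM and tested across all genes with edgeR 4.0.16 (glmQLFit and glmQLFTest, R 4.3.3), as a two-sided test at a Benjamini-Hochberg adjusted p under 0.05. The SE is the absolute log2 fold change over the square root of F. RPKM used union exon lengths, and positions and neighbours came from GENCODE annotation of GRCh38, found for 97.2% of tested genes. The test was checked on simulated counts of 18518 genes for this comparison, of which 200 were changed. It called 29 of 100 genes changed by 0.5 on the log2 scale, 92 of 100 changed by 1 and 1 of 18318 unchanged genes. The data held far more called genes, 2767 higher and 1937 lower, which makes the adjusted threshold less strict there. These shares are therefore not the power for the genes here, and a change of the size of most of them can still be missed. Libraries of a group differed by more than sampling noise, with chi-square over degrees of freedom from 2.29 to 14.0 after division of counts by 4. Control replicates 1 and 2 gave 2.29, and control replicate 3 gave 14.0 and 12.9 against them. Overexpressing replicates 1 and 2 gave 4.34, and overexpressing replicate 3 gave 8.98 and 8.06 against them. Members, lists, alternatives and the rule for named genes were chosen with earlier results of these data known. The rule names all 33 genes and, of each other list, up to 3 with the smallest p; libraries are printed one by one for genes that passed or had an absolute log2 fold change of at least 0.5. The alternatives used other scaling factors (RLE, upper-quartile, none), no filter or 50 counts in 3 libraries, DESeq2 1.42.0, limma-voom (limma 3.58.1), a test against a fold of 1.2 (glmTreat), a replicate block, each library left out, overexpressing replicate 1 alone, counts divided by 4, and chromosomes 6, 15, 20 and X left out. Figures were drawn with matplotlib 3.10.9.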

Additional observations from a re-analysis of the deposited data

How the results depend on the processing

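Of the 14 changed genes, 8 were called with every single library left out: GINS1, PCNA, POLA1, CLSPN, CDCA7, HELLS, RRM2 and CDC6. Leaving out 1 library at a time gave 3 to 9 higher and 5 to 9 lower of the 33 genes, 5 to 15 higher and 12 to 31 lower of the 104 other replication genes, and 1783 to 2917 higher and 1137 to 2226 lower of all genes. Against a fold of 1.2, 3 of the 33 were higher and 4 lower, 5 and 6 of the other replication genes, and 1723 and 874 of all genes. With overexpressing replicate 1 alone against the controls, the single library assumed to vary like the controls, these were 2 and 1, 3 and 1, and 797 and 380. DESeq2 called 16 of the 33 lower, beside 2720 of all 19485 genes. Without chromosomes 6, 15, 20 and X, fewer genes were tested, and 2 of 28 were higher, with 6 higher and 15 lower of 86 other replication genes. In that fit 1986 of 16751 genes were higher and 1381 lower. Correlations of same-numbered deviations between the groups were 0.01, 0.08 and 0.23 for replicates 1, 2 and 3. Pairs with unlike numbers ranged from -0.17 to 0.12, so the value for replicate 3 was the highest. Whether same-numbered libraries share a step of handling was not tested. With the replicate block 14 of the 33 were lower and 9 higher, beside 2669 lower and 3194 higher of all 19485 genes. The median log2 fold change of all genes lay between -0.01 and 0.01 under the 4 scalings.

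Values near 0 changed sign. RRM1 went to 0.00685 without scaling factors, 0.00596 with 50 counts in 3 libraries, 0.00216 with limma-voom, 0.00202 with the replicate block, 0.0163 with overexpressing replicate 1 alone, 0.00334 with counts divided by 4 and 0.0199 without the 4 chromosomes, and lay between -0.0539 and 0.0267 with 1 library left out. RFC4 lay between -0.105 and 0.0329 with 1 library left out. Whether the other lost calls have a cause was not tested.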

Other observations

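Of the 33 genes, 8 have a coding neighbour on the opposite strand whose start lies within 1000 bases of their own, a head-to-head arrangement that was looked at after the values were seen. PCNA and its neighbour CDS2, with starts 160 bases apart, both rose, PCNA by 0.59 and CDS2, a lipid enzyme, by 1.39 on the log2 scale (SE 0.06). MCM2 did not pass (log2 fold change -0.14), while TPRA1, 44 bases away, rose by 0.37 (SE 0.11, edgeR adjusted p = 0.0477). MCM4 rose by 0.24, and PRKDC, which encodes the DNA-dependent protein kinase and starts 2 bases away, had a log2 fold change of 0.11 (SE 0.12, edgeR adjusted p = 0.553). In the pairs of MCM7 with AP4M1, CDC45 with UFD1, FEN1 with TMEM258, TK1 with AFMID and CCNE2 with NDUFAF6, neither gene passed the test. The difference within a pair was not tested.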
